A study of Danio rerio with 6 samples.

Results

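The mitochondrial tRNAs trnF, trnV and trnL2 were followed through 6 stages of early zebrafish life, from the unfertilised egg to the embryo at 24hpf (24 hours after fertilisation). They are 3 of the 22 mitochondrial tRNAs in the authors' deposited table and were taken by gene name. trnF carries phenylalanine, trnV valine and trnL2 leucine. RNA came from pools of about 50 to 100 wild-type TU eggs or whole embryos, taken as mature egg, at the 1cell and 256cell stages, at sphere and shield, and at 24hpf, with 1 library each. No mutation or treatment separates the stages. RNA of 60 to 120 nt was cut from a gel, freed of bound amino acids, end-repaired and treated with a mixture of ALKB enzymes, which remove base modifications that stop reverse transcription.

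Vertebrate mitochondrial DNA is transcribed into long RNAs in which tRNAs lie between the other genes, and the rRNAs and mRNAs are freed when the tRNAs are cut out at both ends. trnF lies ahead of the small-subunit rRNA gene, trnV between the small- and large-subunit rRNA genes, and a leucine tRNA behind the large-subunit rRNA gene. In human mitochondria the transcription termination factor MTERF1 binds within that leucine tRNA gene, and in human mitochondrial ribosomes the valine tRNA is also a structural part of the large subunit. Mitochondrial DNA holds 2 leucine tRNA genes, each reading its own family of leucine codons, and names for them differ between annotations.

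The position of trnL2 could not be settled from the data. All 22 names in the table match symbols of the RefSeq annotation of the GRCz12tu assembly, and there the neighbours of trnF and trnV are the rRNA genes mt-rnr1 and mt-rnr2. In that annotation the leucine tRNA between mt-rnr2 and ND1 is named trnL1, and trnL2 lies between trnS2 and ND5, away from the rRNA genes. Another naming in common use for animal mitochondria gives trnL2 to the gene beside the rRNA genes. The authors' build is GRCz11, per the submitters' processing notes, and the sources used here do not say which naming the authors followed. trnL2 is therefore reported by its name alone, and the values of trnL1 are set beside it.

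The unit, by the name the authors gave the table, is RPM, a read count scaled to the total reads of the library. The libraries held 3324546 to 7096801 reads, of which 241206 to 1432257 were listed under mitochondrial tRNAs. Of the 132 read counts recovered for mitochondrial tRNAs, 125 were even, against 50.3% of the counts in the cytoplasmic table. Every interval given here is at the 95% level, counts 2 recovered reads as 1 observation and covers counting error alone. The sources name no molecular identifiers, so copies made by PCR cannot be set apart and the true error may be wider. Differences between stages have no replicate check. The tables hold only tRNAs, so the stage labels could not be checked against marker genes. RPM values of different tRNAs compare listed reads and are not corrected for length or for efficiency of capture and reverse transcription.

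By listed reads trnV and trnL2 were the most abundant mitochondrial tRNAs in all 6 libraries, and trnF was rare. trnF, trnV and trnL2 together held 72.0% of the mitochondrial tRNA reads in egg, 69.3% at the 1cell stage, 70.5% at the 256cell stage, 68.3% in sphere, 70.4% in shield and 75.4% in 24hpf embryos. In RPM the sum was 96728 in egg, 162910 at the 1cell stage, 170371 at the 256cell stage, 137226 in sphere, 70507 in shield and 29593 in 24hpf embryos. The combined share thus stayed between 68.3% and 75.4% while its parts moved. The most abundant of the 22 by mean RPM was trnV with 69945, and the least abundant was trnS1, a serine tRNA, with 13.3.

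**Figure D1:**
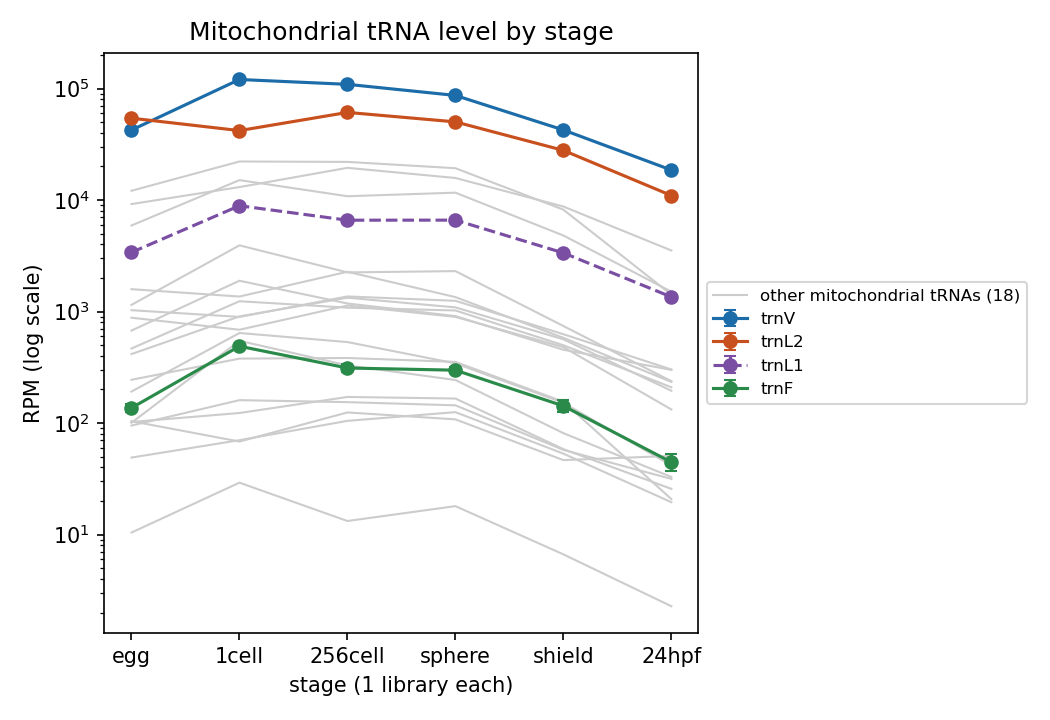
Level of each mitochondrial tRNA in RPM on a log axis by stage, with 1 library per stage and bars for the counting interval. trnV and trnL2 lie above all others at every stage, trnF lies between 44.6 and 489 RPM, trnL1 is dashed and the other 18 tRNAs are grey.

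trnF, the phenylalanine tRNA, had 137 RPM in egg, 489 RPM at the 1cell stage, 312 RPM at the 256cell stage, 298 RPM in sphere, 142 RPM in shield and 44.6 RPM in 24hpf embryos. These levels rest on 970, 2978, 1036, 1756, 600 and 274 recovered reads, in the same order. The 1cell library was highest and the 24hpf library lowest, with a 10.96-fold span. Shield and egg could not be told apart by counting error (1.04-fold, interval 0.899 to 1.21), nor could 256cell and sphere (1.05-fold, 0.936 to 1.17). The other neighbours in the order of levels differed beyond it.

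As a share of the mitochondrial total, trnF made up 0.102% in egg (0.0928 to 0.111, exact Clopper-Pearson interval), 0.208% at the 1cell stage (0.198 to 0.219) and 0.129% at the 256cell stage (0.118 to 0.141). It made up 0.148% in sphere (0.139 to 0.159), 0.142% in shield (0.127 to 0.159) and 0.114% in 24hpf embryos (0.0954 to 0.134). Only the 1cell library stood clear of all others in this share. trnF ranked between 15 and 17 of the 22 in RPM at every stage.

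trnV, the valine tRNA, had 42404 RPM in egg, 120478 RPM at the 1cell stage, 109016 RPM at the 256cell stage, 86704 RPM in sphere, 42492 RPM in shield and 18573 RPM in 24hpf embryos. It too was highest at the 1cell stage and lowest at 24hpf, with a 6.49-fold span, and shield and egg could not be told apart (1.00-fold, 0.994 to 1.01). The order of the 6 stages was the same for trnV and trnF, and also for trnT, the threonine tRNA. As a share trnV made up 31.5% in egg (31.4 to 31.7), 51.3% at the 1cell stage (51.1 to 51.4) and 45.1% at the 256cell stage (45.0 to 45.3). It made up 43.2% in sphere (43.0 to 43.3), 42.4% in shield (42.2 to 42.6) and 47.3% in 24hpf embryos (47.1 to 47.6). The egg share was the lowest, and the 5 embryonic shares lay between 42.4% and 51.3%.

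trnL2, a leucine tRNA, had 54187 RPM in egg, 41943 RPM at the 1cell stage, 61044 RPM at the 256cell stage, 50224 RPM in sphere, 27873 RPM in shield and 10975 RPM in 24hpf embryos. Its highest library was 256cell, its span was 5.56-fold, and all neighbours in the order of levels differed beyond counting error. It made up 40.3% of the mitochondrial total in egg (40.2 to 40.4), 17.8% at the 1cell stage (17.8 to 17.9) and 25.3% at the 256cell stage (25.1 to 25.4). It made up 25.0% in sphere (24.9 to 25.1), 27.8% in shield (27.6 to 28.0) and 28.0% in 24hpf embryos (27.7 to 28.2). Egg was the only stage at which trnL2 exceeded trnV, and the share was highest there and lowest at the 1cell stage.

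**Figure D2:**
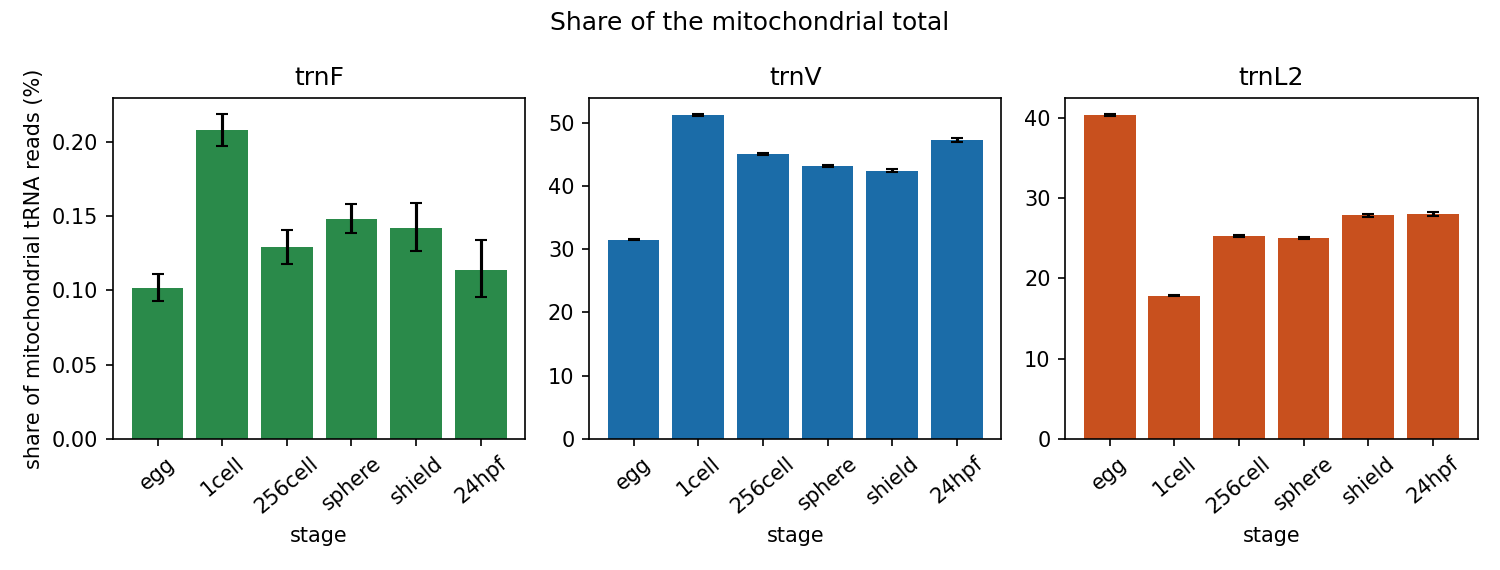
Share of the mitochondrial tRNA reads in percent held by trnF, trnV and trnL2 at each stage, each panel on its own axis from 0, with bars for the exact counting interval. trnF and trnV are highest at the 1cell stage (0.208% and 51.3%), while trnL2 is highest in egg (40.3%) and lowest at the 1cell stage (17.8%).

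The step between 1cell and egg, which spans fertilisation and precedes broad transcription of the nuclear genome, separated trnL2 from trnF and trnV. All log2 ratios between stages use RPM plus a pseudocount of 1 RPM, and a 2-fold difference is counted by size alone. The intervals beside them use the recovered reads without a pseudocount, so for rare tRNAs an interval is not centred on the printed ratio. In RPM the pseudocount understates differences of rare tRNAs. For shares it is added before division by the mitochondrial total, so it can also overstate or reverse them. The share ratio of trnS1 at 24hpf against shield was 0.13, though its share was 0.00580% at 24hpf and 0.00664% in shield. For trnF at 24hpf against egg it was 0.16 with 0.1 RPM, 0.18 with 1 RPM and 0.35 with 10 RPM. trnF was at 1.83 in RPM at the 1cell stage against egg (interval 1.69 to 1.99) and trnV at 1.51 (1.50 to 1.52), while trnL2 was at -0.37 (-0.38 to -0.36). Of all 22 tRNAs 50% were at least 2-fold higher in RPM, so the position of trnF and trnV on that side is common. 0% were at least 2-fold lower, and 5 of 22 were below 0. Reads outside both tables made up 34.2% of the 1cell library, against 20.1% of the egg library, and their part in the RPM values was not tested.

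By share the same step was at 1.02 for trnF (0.88 to 1.18), 0.70 for trnV (0.69 to 0.71) and -1.18 for trnL2 (-1.19 to -1.17). At least 2-fold higher in share were 9.09% of the 22 tRNAs, trnF and trnY, the tyrosine tRNA. At least 2-fold lower were 22.7%, namely trnL2, trnS2, trnP, trnA and trnW, and these were named after their values were seen. In this order of 22, trnF was the second highest, trnV the fifth highest and trnL2 the second lowest. trnL1 was at 1.39 in RPM and 0.58 in share, on the side of trnF and trnV. That side is common, with 17 of the 22 above 0 in RPM and 12 in share.

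Between 256cell and 1cell the members moved the opposite way in share, as did all of the 22 but trnE, trnG and trnK. Both steps use the same 1cell library, so a deviation in it would shift them in opposite ways, which was not tested. At 256cell against egg, which leaves out the 1cell library, trnL2 was at -0.67 in share, the lowest of the 22. In that comparison trnV was at 0.52 and trnF at 0.34, and it rests on the same egg library as the step before. trnF was at -0.69 and trnV at -0.18 at the 256cell stage against 1cell, and trnL2 was at 0.50. Of the 22 tRNAs 4.55% were at least 2-fold lower in share and 0% higher in this step, and none of the members was among them. In RPM trnL2 was at 0.54, trnV at -0.14 and trnF at -0.65.

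From 256cell onward the members kept closer to each other, as did the 22 at sphere and shield. The log2 ratios of share of all 22 ran from -1.41 to 1.62 at 1cell against egg. They ran from -0.49 to 0.68 at sphere against 256cell, -0.63 to 0.15 at shield against sphere and -1.49 to 1.47 at 24hpf against shield. At sphere against 256cell, across the start of broad embryonic transcription, the RPM ratios were -0.06 for trnF (-0.22 to 0.09), -0.33 for trnV and -0.28 for trnL2. In this step 0% of the 22 were at least 2-fold higher or lower, in RPM or in share. At shield against sphere, at the onset of gastrulation, all 22 tRNAs were lower in RPM, with trnF at -1.06, trnV at -1.03 and trnL2 at -0.85. trnL2 and trnH, both at -0.85, had the smallest decreases of the 22 and could not be told apart by counting error. The counting intervals of trnP, trnE and trnS1 also overlapped with that of trnL2. Of the 22, 72.7% were at least 2-fold lower, among them trnF and trnV but not trnL2. At 24hpf against shield trnF was at -1.65, trnV at -1.19 and trnL2 at -1.34 in RPM, where 86.4% of the 22 were at least 2-fold lower. By share 4.55% were at least 2-fold higher and 9.09% lower at 24hpf against shield, none of them members. The share of trnL2 did not differ beyond counting error in that step (0.01, interval -0.01 to 0.03), trnV was at 0.16 and trnF at -0.30 (-0.63 to -0.03).

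**Figure D3:**
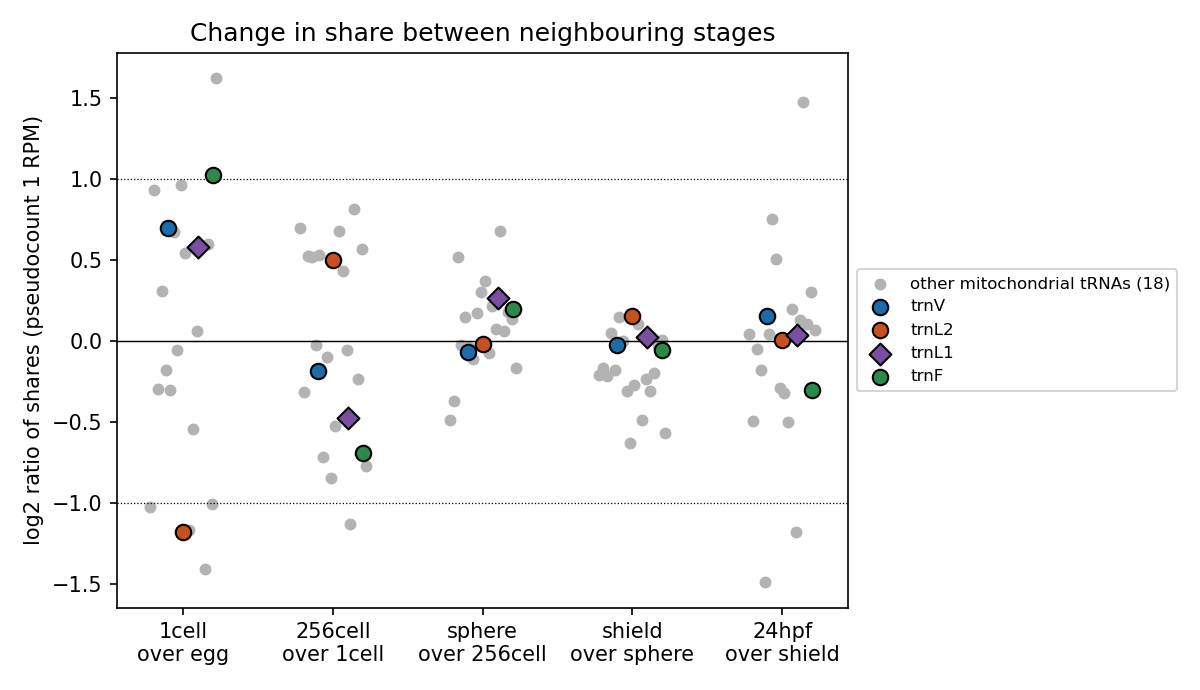
Log2 ratio of shares between neighbouring stages for the 22 mitochondrial tRNAs, with a pseudocount of 1 RPM and dotted lines at 2-fold. At 1cell over egg trnF (1.02) and trnV (0.70) lie above 0 and trnL2 (-1.18) below, and from sphere over 256cell onward the members lie between -0.30 and 0.20.

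At 24hpf, the end of the series, the members were set against egg, its start. trnF had 44.6 RPM at 24hpf against 137 RPM in egg, a log2 ratio of -1.60 (-1.90 to -1.34). trnV had 18573 RPM at 24hpf against 42404 RPM in egg, at -1.19 (-1.20 to -1.18), and trnL2 had 10975 RPM at 24hpf against 54187 RPM in egg, at -2.30 (-2.32 to -2.29). All members were at least 2-fold lower, as were 100% of the 22 tRNAs, whose median was -1.68, so the decrease is shared by the whole table. Median-ratio scaling over the 22 tRNAs, which takes out a change common to them, shifted that median by 1.61 and put trnF at 0.019, trnV at 0.42 and trnL2 at -0.69. In pools of whole eggs or embryos, less mitochondrial tRNA per egg or embryo and a larger amount of other RNA cannot be told apart.

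By share of the mitochondrial total the members parted. trnV held 47.3% at 24hpf against 31.5% in egg, at 0.59 (0.57 to 0.60), and trnL2 held 28.0% at 24hpf against 40.3% in egg, at -0.53 (-0.54 to -0.51). trnF, with 0.114% at 24hpf against 0.102% in egg, was at 0.18 with an interval across 0 (-0.12 to 0.44). None reached 2-fold, and of the 22 tRNAs 9.09% were at least 2-fold lower and 0% higher. The shares of trnV and trnL2 are tied to each other, since the 2 together held 71.8% of the total in egg and 75.3% in 24hpf embryos. With a total without trnF, trnV and trnL2, trnF was at 0.37, trnV at 0.78 and trnL2 at -0.34. The comparison also depends on the egg library. Against 256cell instead, trnF was at -0.16, trnV at 0.07 and trnL2 at 0.15, and against 1cell they were at -0.84, -0.11 and 0.65.

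Other mitochondrial tRNAs gave the setting for this comparison. The 10 heavy-strand tRNAs beyond the rRNA genes, a list that contains trnL1, had a median of -1.47 in RPM and 0.31 in share at 24hpf against egg, and 9 of them without trnL1 were at -1.56 and 0.22. By the RefSeq order trnL2, at -2.30 in RPM and -0.53 in share, would take the place of trnL1 in this list. A median of the list with trnL2 was not computed. All 10 were at least 2-fold lower in RPM, and 2 of 10 in share. The 7 light-strand tRNAs had medians of -1.97 in RPM and -0.19 in share, with 7 and 0 at least 2-fold lower. trnS1 and trnS2 were at -1.80 and -1.02 in RPM. The members' median, which is the value of trnF, was -1.60 in RPM and 0.18 in share, against -1.68 and 0.10 over all 22. The members ran from -2.30 to -1.19 in RPM and from -0.53 to 0.59 in share, so this median is no common level. With trnL1 for trnL2 the median was -1.33 and 0.45, the values of trnL1.

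Sphere, shield and 24hpf, which follow the onset of broad transcription from the nuclear genome, were compared with egg, 1cell and 256cell. The mean log2 difference in RPM was -1.14 for trnF, -1.01 for trnV and -1.06 for trnL2. Of all 22, 68.2% were at least 2-fold lower, with a median of -1.09. For each member the later libraries overlapped with the earlier ones, and only 4.55% of the 22 lay below without overlap. With median-ratio scaling trnF was at -0.086, trnV at 0.050 and trnL2 at -0.00016. Without the 24hpf library the differences in RPM were -0.42 for trnF, -0.44 for trnV and -0.47 for trnL2, and 0 of the 22 were at least 2-fold lower. Without 1cell they were -0.73, -0.73 and -1.21, with 9 of the 22 at least 2-fold lower, and without 256cell -1.05, -0.81 and -0.94. Without sphere they were -1.77, -1.55 and -1.57. By share the members were at -0.05, 0.08 and 0.03, and 0% of the 22 reached 2-fold. The signs of these share differences turned with single libraries. Without 1cell trnF was at 0.23, trnV at 0.23 and trnL2 at -0.25, without egg they were at -0.28, -0.12 and 0.34, and without 24hpf trnF was at 0.058. The smallest exact two-sided permutation p of this design is 0.1, and the members' exact permutation p in RPM was 0.3, 0.3 and 0.2. This permutation exchanges different stages as if they were replicates, which they are not, so its p only describes the order of the libraries.

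An edgeR quasi-likelihood test on the recovered reads, which takes different stages as if they were replicates and was added after the data were seen, gave 0 of 22 mitochondrial tRNAs an adjusted p under 0.05 (0%, and 1.67% of all 60 features). At an unadjusted p under 0.05 edgeR had 3 of 22 (13.6%), trnA, trnC and trnY, against 21.7% of all 60 features. Its log2 fold changes were -0.64 for trnF (adjusted p 0.436), -0.52 for trnV (adjusted p 0.548) and -0.54 for trnL2 (adjusted p 0.499). edgeR scaled the libraries by a trimmed mean over the 60 features, so these values are not on the scale of the RPM differences.

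Ratios between members within a library do not depend on scaling between libraries. The library held 310 trnV reads per trnF read in egg (284 to 340), 247 at the 1cell stage (234 to 260), 350 at the 256cell stage (321 to 382), 291 in sphere (272 to 311), 298 in shield (266 to 335) and 417 in 24hpf embryos (352 to 496). In RefSeq both genes lie beside the same rRNA gene, mt-rnr1. The ratio itself moved 1.69-fold. Among the 231 pairs of mitochondrial tRNAs the median span was 2.96-fold, and this pair ranked 31 from the steadiest. trnF, trnV, trnL2 and trnL1 differ in sequence, and their efficiency of capture and reverse transcription was not tested.

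The ratio of trnL2 to trnV was 1.28 in egg (1.27 to 1.29), 0.348 at the 1cell stage (0.346 to 0.350), 0.560 at the 256cell stage (0.556 to 0.564), 0.579 in sphere (0.576 to 0.583), 0.656 in shield (0.649 to 0.663) and 0.591 in 24hpf embryos (0.583 to 0.599). The egg library lay above and the 1cell library below the other 4, and the 3.67-fold span ranked 167 of 231. Without egg the span was 1.88-fold, without 1cell it was 2.28-fold, and without both it was 1.17-fold. A span cannot grow when libraries are left out, and egg and 1cell held its highest and lowest values. Leaving out libraries, singly or together, was not planned for the ratios, so the fall restates these extremes. The ratio of trnL2 to trnF was lowest at the 1cell stage with 85.8 and highest in egg with 396, a 4.62-fold span that was 2.87-fold without egg, 2.35-fold without 1cell and 1.46-fold without both.

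The ratio of trnL1 to trnV, the other leucine tRNA against the valine tRNA, was 0.0800 in egg, 0.0738 at the 1cell stage, 0.0605 at the 256cell stage, 0.0762 in sphere, 0.0790 in shield and 0.0728 in 24hpf embryos. Its span of 1.32-fold ranked 3 of 231. Steadier were trnT to trnV (rank 1) and trnT to trnL1 (rank 2), both at 1.19-fold. RefSeq places trnT between CYTB and trnP, not next to an rRNA gene. trnL1 is the name RefSeq gives to the tRNA behind mt-rnr2. Without egg and 1cell together the order of the spans turned, with 1.31-fold for trnL1 to trnV and 1.17-fold for trnL2 to trnV. These libraries are the extremes of trnL2 to trnV, while 256cell is the lowest of trnL1 to trnV, so the turn is no separate result. In egg trnL2 had 16.0 times as many reads as trnL1. It had 4.72 times as many at the 1cell stage, 9.26 times at the 256cell stage, 7.61 times at sphere, 8.31 times at shield and 8.12 times at 24hpf. The sources used here do not say how reads that could belong to either leucine tRNA were assigned.

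**Figure D4:**
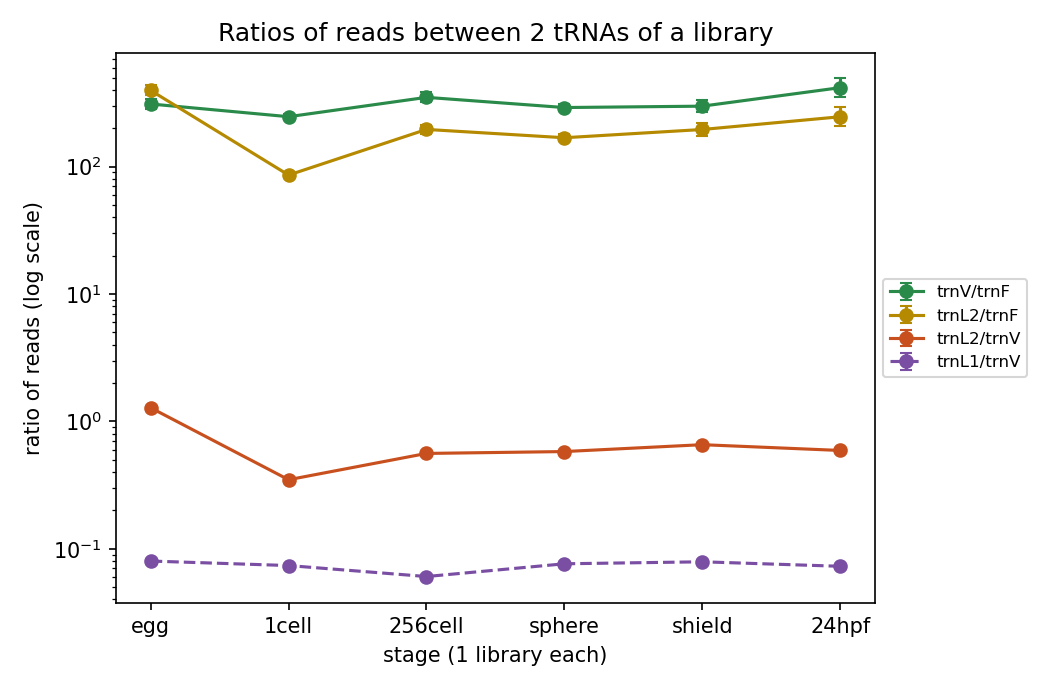
Ratios of reads between tRNAs of the same library by stage on a log axis, with bars for the exact binomial counting interval. trnV/trnF (247 to 417) spans 1.69-fold and trnL1/trnV (0.0605 to 0.0800, dashed) 1.32-fold, while trnL2/trnV and trnL2/trnF are high in egg (1.28 and 396) and low at the 1cell stage (0.348 and 85.8).

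The tRNAs most like each member were found by the root mean square difference of log2 share over the 6 stages, each profile centred on its own mean. This measure is the same in RPM. Nearest to trnV were trnT, the threonine tRNA, at 0.09, trnL1 at 0.13 and trnF at 0.23. Nearest to trnF were trnN, the asparagine tRNA, at 0.16, trnL1 at 0.23 and trnV at 0.23. Nearest to trnL2 were trnW, the tryptophan tRNA, at 0.17, trnP, the proline tRNA, at 0.20 and trnQ, the glutamine tRNA, at 0.28. The median over the 231 pairs was 0.51, and trnL2 stood at 0.55 from trnV and at 0.66 from trnF. By this measure trnF and trnV were in each other's list of 3 nearest, and trnL2 was in neither. The 6 points of a profile share their libraries, so these values only describe them.

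Without the 24hpf library trnV and trnF drew closer, at 0.16. Without egg, and likewise without 1cell, neither was among the 3 nearest of the other, and without 256cell or shield trnV was not among the 3 nearest of trnF. Without egg the nearest to trnL2 was trnH, the histidine tRNA, at 0.02, against 0.33 over all 6 libraries. The ratio of trnH to trnL2 was 0.170 in egg and then 0.311 at the 1cell stage, 0.318 at the 256cell stage, 0.314 in sphere, 0.314 in shield and 0.321 in 24hpf embryos. In the RefSeq annotation only trnS2 lies between these genes, and it stood at 0.51 from trnL2 over all 6 libraries. The span of this ratio was 1.89-fold over 6 libraries and 1.03-fold without egg, which restates the choice of trnH as the nearest without egg and is no separate result.

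Cytoplasmic sequences were summed for valine and leucine, while 0 cytoplasmic sequences were listed under phenylalanine. The 39 listed cytoplasmic valine sequences summed to 674 RPM in egg, 648 RPM at the 1cell stage, 782 RPM at the 256cell stage, 993 RPM in sphere, 1330 RPM in shield and 3906 RPM in 24hpf embryos. trnV had 4.75 times as many RPM as these at 24hpf, against 186 times as many at the 1cell stage. The 7 cytoplasmic leucine sequences ranged from 117 RPM at the 1cell stage to 216 RPM in egg, with 125 RPM at 24hpf. The rules for listing a read in either table were not given, so the level of these ratios is uncertain.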

How the data were processed

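The authors deposited RPM values for 22 mitochondrial tRNAs and for 3021 cytoplasmic read sequences, with 1 library per stage. The reads were processed with cutadapt 3.4, Bowtie2 2.4.2 and the build GRCz11, per the submitters' processing notes. The sources used here do not give settings or the handling of shared reads. In each library every RPM value was a whole multiple of 1 step within 0.01 reads (100% of values), which gave library totals and read counts. RPM and the share of the mitochondrial total were compared between stages as log2 ratios with a pseudocount of 1 RPM and no filter. Exact binomial intervals (95%) were computed with scipy 1.17.1 with 2 reads counted as 1 observation, a choice made after the even counts were seen. edgeR 4.0.16 was checked on simulated reads and run on 60 features, the 22 tRNAs and the cytoplasmic sums per anticodon label, without a filter.

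The text names the 3 members, the 3 tRNAs nearest to each, the most and least abundant tRNA, and others only where stated. The members and lists were chosen with earlier results of these data known. Alternatives were the pseudocount, a filter on low values, the scaling, the denominator of the share, the stage compared with and leaving out each library.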

Additional observations from a re-analysis of the deposited data

How the results depend on the processing

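No paired analysis was possible because each stage has 1 library. Median-ratio scaling moved the median of all 22 tRNAs at 24hpf against egg by 1.61 from the -1.68 in RPM and put trnF at 0.019, trnV at 0.42 and trnL2 at -0.69. It moved the median of the later against the earlier stages by 1.06 and put trnV at 0.050, trnF at -0.086 and trnL2 at -0.00016. This scaling takes out a change common to the mitochondrial tRNAs by construction. Dividing by the cytoplasmic total shifted the 2 medians by -0.22 and -0.31.

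Of the 22 tRNAs at least 2-fold lower in RPM at 24hpf than in egg, 4 were left with median-ratio scaling, and 8 of the 8 tested with a mean of at least 1000 RPM, which leaves out trnF. By share 2 were lower in that comparison, against 4 with median-ratio scaling, 1 with the filter of 1000 RPM, 1 with a total without trnV and 5 with 1cell replacing egg. By share 0 were higher, against 1 with a pseudocount of 10 RPM, 3 with a total without trnV, 1 with 256cell and 2 with 1cell replacing egg. Among later against earlier stages 15 were lower in RPM, against 6 of 8 with the filter and 0 with median-ratio scaling. edgeR, with its own scaling, had 3. When a library was left out 0 to 21 were lower, with 9 without 1cell and 0 without 24hpf.

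The share ratio of trnL2 at 24hpf against egg ranged from -0.69 to 0.65 over its alternatives, that of trnV from -0.11 to 0.96 and that of trnF from -0.84 to 0.56. When a library was left out, the span of trnV/trnF was 1.42 to 1.69-fold, of trnL2/trnF 2.35 to 4.62-fold and of trnL2/trnV 1.88 to 3.67-fold. Without egg and 1cell together they were 1.43, 1.46 and 1.17-fold. Leaving out libraries, singly or together, was not planned for these spans. Egg and 1cell are the extremes of both ratios with trnL2, so their smaller spans restate that. Depth limits trnF, whose 274 reads at 24hpf leave its share there indistinct from that in egg and 256cell.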

Other observations

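The recovered read counts of the mitochondrial table were even in nearly every case. Of 22 counts 20 were even in egg and in 24hpf embryos, 21 each in the 1cell, 256cell and sphere libraries, and all 22 in shield. Among the 3021 counts of a library in the cytoplasmic table, 49.7% to 51.0% were even. For trnF and trnL2 all 12 counts were even, and for trnV 4 of 6. What makes the counts even was not tested. If reads were counted in pairs in 1 table and singly in the other, RPM values of the 2 tables would not be on the same scale. That would touch the levels of mitochondrial against cytoplasmic tRNAs but not the ratios within the mitochondrial table. It would also touch the percentages of reads outside both tables and the scaling of edgeR, which take the 2 tables together.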
